A study of Mus musculus with 6 samples.

Results

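The genes described here are 3 metallothioneins (Mt1, Mt2 and Mt3), the zinc-sensing transcription factor Mtf1, 3 zinc exporters (Slc30a1, Slc30a4 and Slc30a9) and 3 zinc importers (Slc39a14, Slc39a1 and Slc39a10). They are 10 of 19938 genes named on the arrays and are read by 11 of 28944 probe sets, those that the platform annotation assigns to the listed symbols. The list was selected on the readout, with the difference between treated and saline hearts already known, so the values of that comparison are given for these genes as a description and support nothing further. All 10 genes passed the filter on dim signals (a mean log2 signal of at least 4.345 over the 6 arrays), so none is missing from what follows.

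The 2MT group was 3 left ventricle samples of mice given 2-methyl-2-thiazoline (2MT), a small thiazoline compound, at 50 mg/kg by subcutaneous injection, with hearts excised after 4 h. The saline group was 3 left ventricle samples of mice labelled as treated with saline. The comparison was made to study how 2MT protects the heart. All mice were 10-week-old C57/BL6 males with no transgene or deletion named. The treatment protocol attached to the saline samples describes only the 2MT injection, so the time between saline injection and excision is not given separately, and the labels do not tie arrays to animals, so p-values reflect only how these samples vary, and that variation may be technical. The measurements are 1 Affymetrix array per sample, made from 100 ng of total RNA each and given as log2 signal per probe set, so a difference of 1 is a doubling of signal.

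Metallothioneins are small cysteine-rich proteins that bind zinc and copper and buffer the free metal in the cell. When free zinc rises, MTF1 binds metal response elements in the promoters of Mt1, Mt2 and the exporter gene Slc30a1 and raises their transcription. Mt1 and Mt2 also respond to glucocorticoids, oxidants and inflammatory cytokines, and they have been studied in the heart as protectants against oxidative damage. Most proteins of the SLC30 (ZnT) family move zinc out of the cytosol, while that of Slc30a9 exports it from mitochondria. Those of the SLC39 (ZIP) family move zinc into the cytosol, so the 3 groups of genes together set how much is free there.

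The cardiomyocyte signal was even across the arrays, and other marker lists were less so. The mean of 10 cardiomyocyte markers, among them Myh6, Myl2 and Tnnt2, lay at a log2 signal of 12.2 in every array, with 0 of 10 called different in limma (0 at an unadjusted p under 0.05). Array correlations over the tested genes were 0.992 to 0.995 within groups and 0.987 to 0.990 between groups. The saline 3 array stood apart on the second principal component, at -11.6 against -1.12 to 4.65 for the others, and its mean of the erythrocyte markers Alas2 and Bpgm was 6.92 against 5.76 to 6.08 on the other 5. The saline 2 array was high for 3 of 4 atrial markers although every sample is labelled left ventricle: Myl4 was 6.47 there against 4.80 to 5.13 on the other 5, Myl7 4.95 against 3.38 to 3.63, and Sln 3.56 against 2.87 to 3.05, while Nppa was at its lowest there, at 9.91. Of 8 endothelial markers, 1 was called lower in 2MT hearts and 0 higher in limma (4 at an unadjusted p under 0.05). Over all tested genes 2.41% were called lower. Pecam1 fell by 0.33 (adjusted p = 0.020 in limma), while the list's median was 0.03. The uncalled markers at an unadjusted p under 0.05 went both ways: Kdr differed by 0.24, Emcn by 0.20 and Fabp4 by -0.14. None of 6 neutrophil markers passed the dim filter, so they were not tested. Of them, Clec4d was 3.26, 3.65 and 3.14 on the 2MT arrays, against 4.28, 4.70 and 4.75 on the saline arrays, a difference of -1.23. S100a8, Mmp9 and Ly6g differed by 0.05, 0.06 and 0.0033, and S100a9 and Cxcr2 by -0.12 and -0.10. The part of these marker differences in the results was not tested. Without saline 2 the differences of Mt1 and Mt2 were -0.735 and -1.21, and values of all 10 genes without saline 3 are given with each gene. In whole tissue, fewer cells of a type and less RNA per cell cannot be told apart.

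Both widely expressed metallothionein genes were lower in 2MT hearts, and none of the other 8 genes differed past the threshold. Of the 10 genes, 2 were called lower and 0 higher in limma at an adjusted p under 0.05 over all genes (2 at an unadjusted p under 0.05). Over all 10547 genes tested, 4.63% were called in either direction and 2.41% were called lower. The 2 groups did not overlap in 3 of the 10 genes (Mt1, Mt2 and Slc39a1), where 21.1% of all tested genes showed no overlap. Since the list was chosen with this comparison known, nothing is read from these shares. The median difference of the 10 genes was -0.07 on the log2 scale, against 0.0033 for all tested genes.

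**Figure D1:**
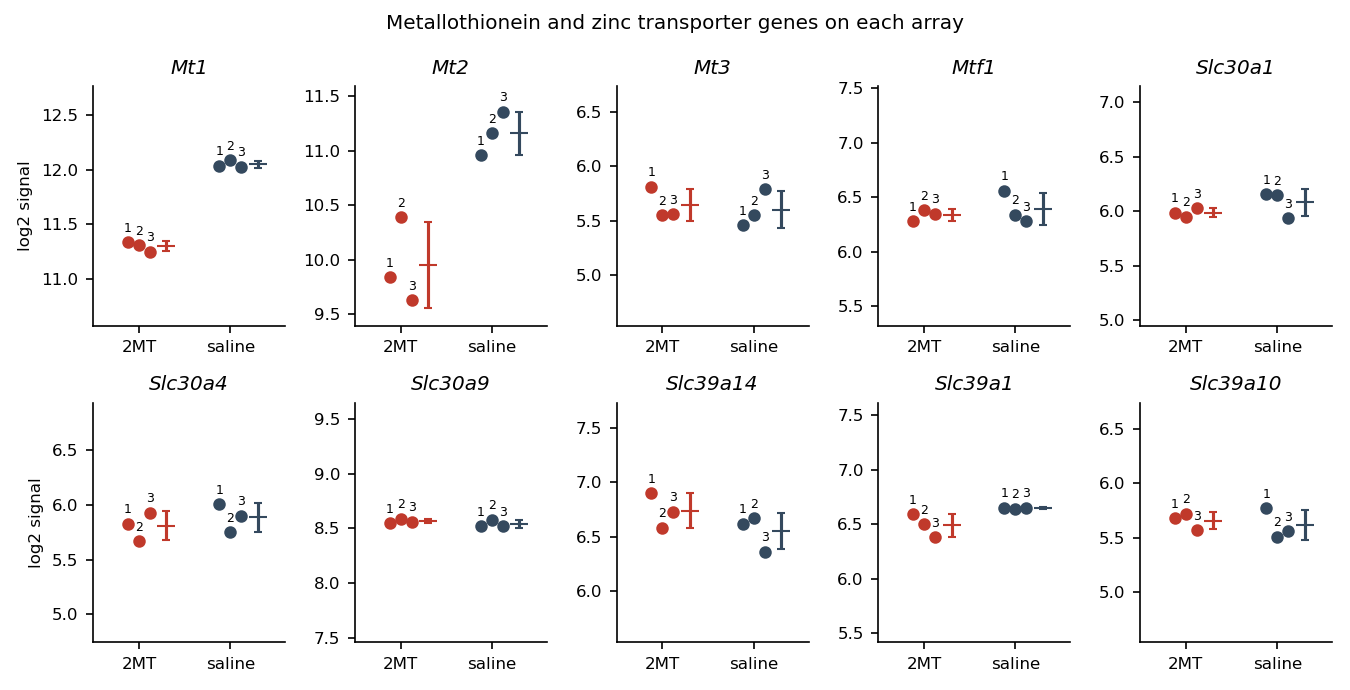
Log2 signal of each of the 10 genes on each array, 2MT (red) to the left of saline (dark), with array numbers above the points and the mean ± SD (n = 3) beside each group; every panel spans the same 2.2 log2 units. Mt1 and Mt2 have separate groups with a gap, Slc39a1 has separate groups that lie close together, and the other 7 genes overlap.

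Mt1 encodes metallothionein 1, one of the main inducible zinc-buffering proteins of most tissues. Its log2 signal was 11.34, 11.31 and 11.25 on the 2MT arrays, against 12.04, 12.09 and 12.03 on the saline arrays. The groups were separate and each was tight, with a range of 0.09 within 2MT and 0.06 within saline. The mean was 11.30 ± 0.05 in 2MT hearts and 12.05 ± 0.03 in saline hearts (SD, n = 3 each), a fall of 1.69-fold, or a log2 difference of -0.75 ± 0.04 (SE). Its 95% interval was -0.84 to -0.66. By unadjusted p it ranked 5 among all genes tested, although by size its fall ranked 43. Without saline 3 the difference was -0.765.

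Mt2 encodes metallothionein 2, which shares the buffering role of Mt1. Its log2 signal was 9.84, 10.39 and 9.63 on the 2MT arrays, against 10.96, 11.16 and 11.36 on the saline arrays. The highest 2MT array, 2MT 2, still lay below the lowest saline array, saline 1. The mean was 9.95 ± 0.39 in 2MT hearts and 11.16 ± 0.20 in saline hearts (SD, n = 3 each), a fall of 2.31-fold, or -1.21 ± 0.14 on the log2 scale (SE, 95% interval -1.52 to -0.90). By size this was the 10th largest fall among the tested genes. Without 2MT 2 the difference was -1.42, and without 2MT 3 it was -1.04, so it kept its direction and its call with either array left out.

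The pair fell by unequal amounts and with unequal spread. The log2 difference of Mt2 exceeded that of Mt1 by -0.45, but the arrays of the 2 groups overlapped in this respect: the Mt2 signal minus the Mt1 signal was -1.50, -0.92 and -1.62 on the 2MT arrays, against -1.08, -0.93 and -0.67 on the saline arrays. The 2MT 2 array was the exception among the treated hearts, with a value inside the saline range. Its Mt2 signal was the highest of the 2MT arrays, while its Mt1 signal lay between the other two. The larger fall of Mt2 therefore rests on 2MT 1 and 2MT 3 and was given no test.

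Few genes with signals as bright as these fell by so much. Of 249 tested genes with a mean log2 signal of at least 10, a level picked after the values were seen, 11 were called lower and 10 higher. Among all tested genes 2.41% were called lower and 4.63% in either direction, so calls were more frequent among bright genes than among all tested genes. In this bright group Mt2 had the largest fall and Mt1 ranked 3, with Pdk4, the kinase that inhibits pyruvate dehydrogenase, between them at -0.89 ± 0.08 (SE).

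**Figure D2:**
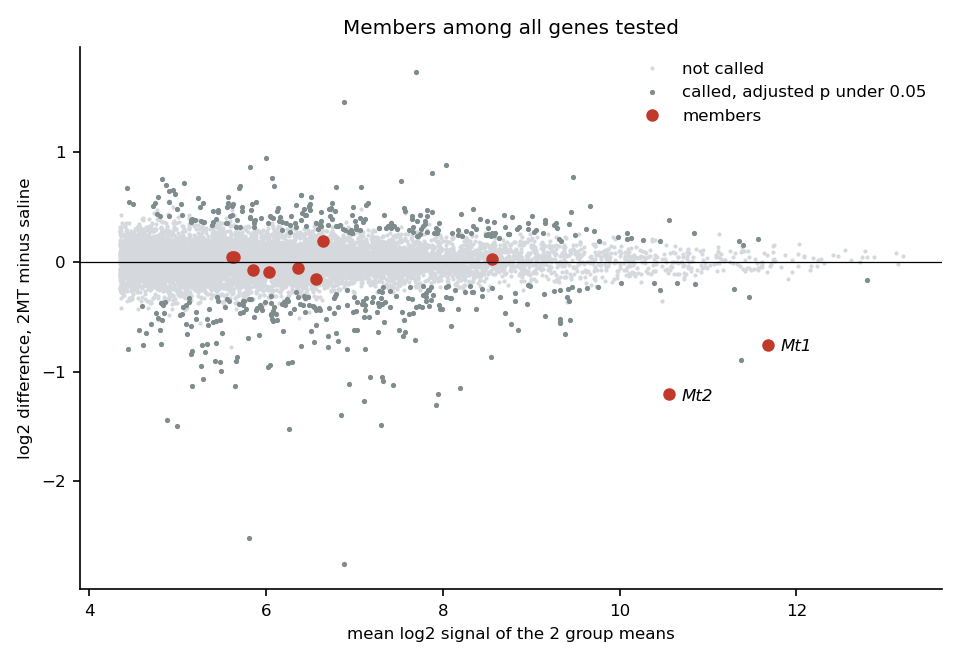
Log2 difference (2MT minus saline) of each of the 10547 tested genes against the mean log2 signal of the groups; the described genes are red and genes called at an adjusted p under 0.05 are dark grey. Mt1 (-0.75) and Mt2 (-1.21) lie at the bright end, well below the band of bright genes around 0, and the other 8 lie inside the band.

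Mt3, a metallothionein known chiefly from the brain, did not share the fall. Its log2 signal was 5.81, 5.55 and 5.56 on the 2MT arrays, against 5.46, 5.55 and 5.79 on the saline arrays, and the groups overlapped fully. The difference was 0.04 ± 0.11 (SE), with a 95% interval of -0.19 to 0.27 that does not reach the fall of Mt1 or Mt2 in array signal. Its signal over background is unknown, so the interval may not hold for the transcript. The saline 3 array held the highest Mt3 and Mt2 signals of its group, and without it the Mt3 difference was 0.14 and the Mt2 difference -1.11; the part of the erythrocyte signal of that array in these values was not tested. Mt4, the fourth gene of the family, is known from stratified epithelia and was dim, at 3.08 ± 0.13 in 2MT hearts and 3.31 ± 0.25 in saline hearts (SD, n = 3 each).

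The 4 metallothionein genes follow each other on mouse chromosome 8 in the order Mt4, Mt3, Mt2, Mt1 in the RefSeq annotation of GRCm38.p6, with 1 lncRNA gene annotated between Mt3 and Mt2. The bases before the annotated start are shown for Mt1 and Mt2, which fell, for Mt3, their neighbour that was not called, and for Slc30a1, the exporter gene that shares the metal-dependent control of Mt1 and Mt2. Each is the RefSeq sequence of the 250 bases before the start, 5′ to 3′ on the strand of the gene (+ for all 4). The capitals mark the core of a metal response element, searched as TGCACNC and TGCGCNC on both strands, where N is any base. They lie at chr8:94178839-94179088 for Mt1, chr8:94172368-94172617 for Mt2, chr8:94152357-94152606 for Mt3 and chr1:191906531-191906780 for Slc30a1.
Mt1: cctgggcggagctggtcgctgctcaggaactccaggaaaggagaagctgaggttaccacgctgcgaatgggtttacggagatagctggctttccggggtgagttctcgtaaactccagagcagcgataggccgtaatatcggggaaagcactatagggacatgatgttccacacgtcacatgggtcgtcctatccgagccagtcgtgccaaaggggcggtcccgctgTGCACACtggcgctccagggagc
Mt2: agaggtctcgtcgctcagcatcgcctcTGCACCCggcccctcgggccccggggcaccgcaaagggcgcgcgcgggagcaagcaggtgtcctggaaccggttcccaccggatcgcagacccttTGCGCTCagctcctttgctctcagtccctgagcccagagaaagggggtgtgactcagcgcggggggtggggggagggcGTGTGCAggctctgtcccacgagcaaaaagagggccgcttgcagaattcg
Mt3: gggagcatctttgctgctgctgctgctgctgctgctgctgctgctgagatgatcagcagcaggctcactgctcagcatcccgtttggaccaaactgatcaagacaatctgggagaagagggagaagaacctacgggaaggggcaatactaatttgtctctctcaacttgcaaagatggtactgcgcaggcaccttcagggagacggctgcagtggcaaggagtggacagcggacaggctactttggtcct
Slc30a1: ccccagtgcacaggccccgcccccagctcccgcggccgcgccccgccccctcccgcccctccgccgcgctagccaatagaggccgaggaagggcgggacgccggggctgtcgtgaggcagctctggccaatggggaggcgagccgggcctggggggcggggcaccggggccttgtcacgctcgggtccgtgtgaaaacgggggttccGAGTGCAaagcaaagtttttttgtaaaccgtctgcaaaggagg

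Counting also the 50 bases after the start, which are not shown, the window of Mt2 held 4 metal response element cores and that of Mt1 held 3. The cores of Mt2 began at -223, -128 and -50 and, after the start, at 5. Those of Mt1 began at -23, 3 and 21. Positions and counts hold for windows set on the annotated starts, which were not checked against the starts used in the heart. Where the main start lies elsewhere, a window can miss cores of the promoter. The window of Slc30a1 held 2 cores, that of Slc30a4 held 3, that of Mt3 held 1, and the windows of Mtf1, Slc30a9, Slc39a1 and Slc39a10 held none. A window of this length held at least 1 core in 25.7%, at least 3 in 1.97% and at least 4 in 0.517% of all 32851 RefSeq mouse windows. Slc30a4 and Mt1 held the same number of cores in these windows. Whether the cores bear on the differences between the groups was not tested.

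The core of the antioxidant response element, the binding site of NRF2, was searched as TGACNNNGC on both strands. It was found in 12.4% of all windows. Of the genes described here, Mt2 held 1 at -79 to -71 (TGACTCAGC), Slc30a1 held 1 at -82 to -74 and Slc39a1 held 1 at -63 to -55. The 300 bases searched for Mt1 held none. Bases more than 50 after its annotated start were not searched, so this does not show that its promoter lacks the element. No match of one motif overlapped a match of the other. A match of letters is not a measured binding site, and elements further from the start were not searched.

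**Figure D3:**
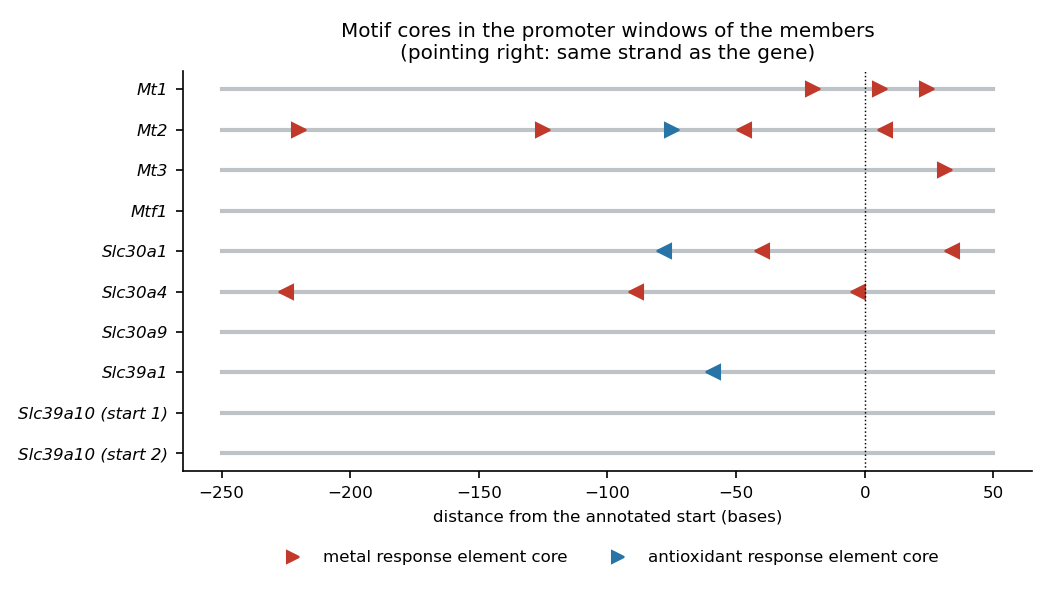
Positions of metal response element cores (red) and antioxidant response element cores (blue) in the RefSeq promoter windows of 9 of the 10 genes, as distance in bases from the annotated start; triangles pointing right are on the strand of the gene. Mt2 holds 4 red marks and 1 blue, Mt1 holds 3 red, and Slc39a10, which has 2 annotated starts, holds none.

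Mtf1, which encodes the zinc-sensing activator of Mt1, Mt2 and Slc30a1, had much the same signal in both groups. It was 6.28, 6.38 and 6.35 on the 2MT arrays, against 6.56, 6.34 and 6.28 on the saline arrays. The saline 1 array was the highest of all 6 and the other values intermingled. The difference was -0.06 ± 0.08 (SE, 95% interval -0.24 to 0.12), and without saline 3 it was -0.11 and still not called. These arrays measure the transcript of Mtf1 and not the activity of the protein.

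Of the exporters, Slc30a1 (ZnT1), the plasma membrane exporter, was read at 5.99, 5.95 and 6.03 on the 2MT arrays, against 6.16, 6.15 and 5.94 on the saline arrays. Saline 1 and saline 2 lay above all 2MT arrays and saline 3 lay below them. The difference was -0.09 ± 0.08 (SE), and its 95% interval of -0.27 to 0.09 did not reach the fall of Mt1 in array signal. As the signal over background is unknown, the interval may not hold for the transcript. Without saline 3 the groups were separate, with a difference of -0.17 that was still not called.

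Slc30a4 (ZnT4), a vesicular transporter mutated in the lethal milk mouse, was read at 5.83, 5.67 and 5.93 on the 2MT arrays, against 6.01, 5.75 and 5.90 on the saline arrays. The difference was -0.08 ± 0.09 (SE, 95% interval -0.28 to 0.13), the groups overlapped, and without saline 3 it was -0.07. Slc30a9 (ZnT9), which exports zinc from mitochondria, was the steadiest of the 10 genes, at 8.55, 8.59 and 8.56 on the 2MT arrays, against 8.52, 8.58 and 8.52 on the saline arrays. Its difference of 0.03 ± 0.05 (SE) had a 95% interval of -0.08 to 0.14, and without saline 3 it was 0.02.

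Of the importers, Slc39a14 (ZIP14), which carries zinc, manganese and iron and is induced by interleukin 6 in mouse liver, had the largest positive difference of the 10 genes. Its log2 signal was 6.90, 6.58 and 6.73 on the 2MT arrays, against 6.62, 6.67 and 6.36 on the saline arrays. The 2MT 2 array lay within the saline range. The difference was 0.19 ± 0.10 (SE, 95% interval -0.02 to 0.40) and was not called, and without saline 3, the lowest array, it was 0.09.

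Slc39a1 (ZIP1), a plasma membrane importer found in most tissues, was read by 2 probe sets that disagreed. On the brighter one the signal was 6.59, 6.50 and 6.38 on the 2MT arrays, against 6.65, 6.64 and 6.65 on the saline arrays, so every 2MT array lay below every saline array. The difference was small, at -0.16 ± 0.07 (SE, 95% interval -0.32 to 0.0023), and was not called; without saline 3 it was -0.155. On the dimmer probe set the signal was 5.25, 5.57 and 5.54 on the 2MT arrays, against 4.95, 5.18 and 5.79 on the saline arrays. There the groups overlapped and the difference had the opposite sign, 0.15 ± 0.17 (SE). The direction of Slc39a1 therefore depends on the probe set, and the mean of the pair gave a difference of -0.005.

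Slc39a10 (ZIP10), an importer gene that zinc represses through MTF1 in mouse cells, was read at 5.68, 5.72 and 5.57 on the 2MT arrays, against 5.77, 5.51 and 5.56 on the saline arrays. The groups overlapped, and the difference was 0.04 ± 0.09 (SE, 95% interval -0.16 to 0.24). Without saline 3 it was 0.02. Of the MTF1-controlled genes on the list, the metallothioneins Mt1 and Mt2 were called lower, and Slc30a1 and Slc39a10 were not called in either direction. Whether zinc or MTF1 bears on any of these differences was not tested.

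**Figure D4:**
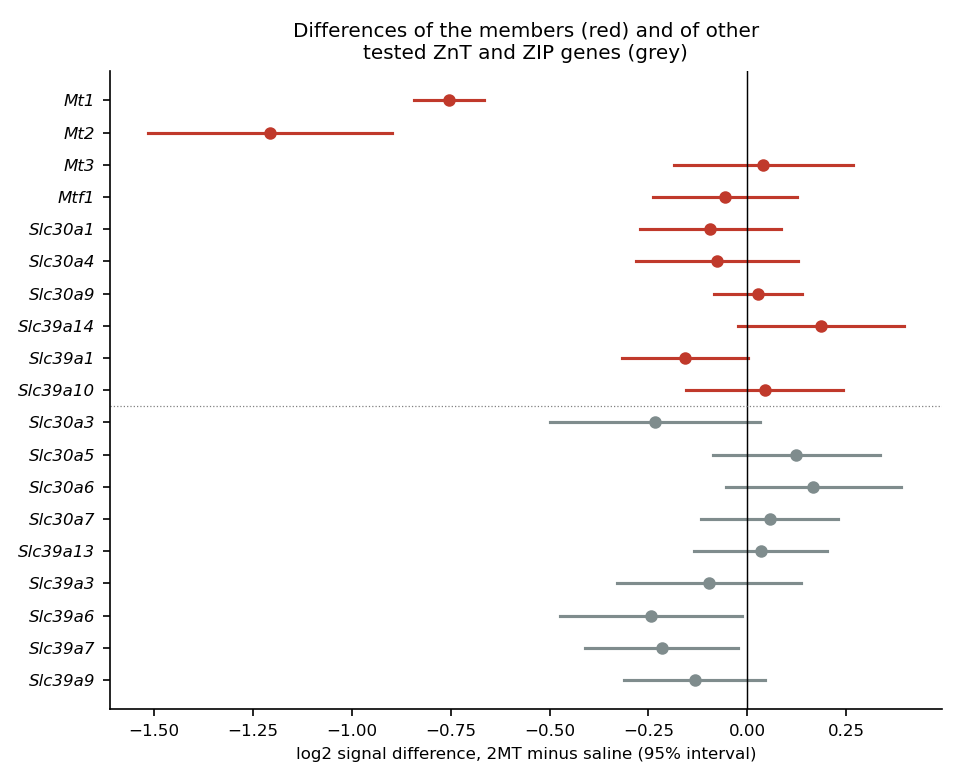
Log2 difference (2MT minus saline) with its 95% interval from limma for the 10 described genes (red) and for the 9 other tested ZnT and ZIP genes (grey, below the dotted line). The intervals of Mt1 and Mt2 lie far below 0, and those of the other genes reach or lie near 0.

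The remaining genes of the 3 families showed no call. Of 19 further metallothionein, ZnT and ZIP genes, 9 passed the dim filter, and of these 0 were called in limma (2 at an unadjusted p under 0.05, Slc39a6 and Slc39a7), with the smallest adjusted p at 0.22. Their differences ran from -0.24 to 0.17. Slc39a7 (ZIP7), which releases zinc from the endoplasmic reticulum, was at 5.96 ± 0.05 in 2MT hearts and 6.18 ± 0.17 in saline hearts, and Slc39a6 (ZIP6), a plasma membrane importer, was at 4.87 ± 0.02 in 2MT hearts and 5.11 ± 0.19 in saline hearts (SD, n = 3 each). For Slc39a7 and for Slc39a6 every 2MT array lay below every saline array, where 21.1% of all tested genes showed no overlap. Counting the described genes with the rest, the ZIP list had a median of -0.12 over 8 tested genes and the ZnT list a median of 0.03 over 7.

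The list counts from here on stand beside shares over all tested genes of 2.41% called lower and 4.63% called in either direction. The lists were chosen with earlier results of these data known, so nothing is read from the counts. Among genes known to be controlled by MTF1, 4 of 11 tested were called lower and 0 higher, with a median of -0.11. Besides Mt1 and Mt2 these were Gclc, the catalytic subunit of the enzyme that limits glutathione synthesis (-1.53 ± 0.08, adjusted p = 1.1e-07 in limma), and Slc40a1, the iron exporter ferroportin (-0.94 ± 0.12, adjusted p = 0.00055 in limma). Gclc is also counted in the NRF2 list below. The other 5 tested genes of the list outside the 10 were not called: Selenoh differed by -0.17, Selenow by -0.11, Csrp1 by -0.0033, and Ndrg1 and Pgf by 0.02 each.

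Outside zinc, 2 of 13 tested copper genes were called lower and 0 higher, with a median of 0.08. Sod1, the copper and zinc superoxide dismutase, was at 9.29 ± 0.08 in 2MT hearts and 9.54 ± 0.09 in saline hearts (SD, n = 3 each), a difference of -0.24 ± 0.06 (SE, adjusted p = 0.030 in limma). Atp7a, a copper-exporting ATPase, was at 5.50 ± 0.09 in 2MT hearts and 5.89 ± 0.15 in saline hearts, a difference of -0.38 ± 0.09 (SE, adjusted p = 0.032 in limma). Both calls were lost in limma without saline 1 (adjusted p of 0.0864 for Sod1 and 0.133 for Atp7a), saline 2 (0.126 and 0.109), 2MT 2 (0.073 and 0.144) or 2MT 3 (0.173 and 0.0714), and that of Atp7a also without 2MT 1 (0.0725). They were also lost with no dim filter (0.0514 and 0.0537) and without the variance trend (0.144 and 0.0561).

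Of 12 tested genes of iron, manganese and divalent metal transport, 2 were called lower and 0 higher, with a median of 0.02. They were Slc40a1 again and Ftl1, the ferritin light chain, at 7.62 ± 0.06 in 2MT hearts and 8.78 ± 0.05 in saline hearts (SD, n = 3 each, adjusted p = 4.5e-08 in limma), whose probe set may also read near-identical copies. Of 9 tested zinc signalling genes 0 were called in limma (3 at an unadjusted p under 0.05), with a median of -0.06. Among all tested genes 2.41% were called lower. Over all metal lists, 48 tested genes outside the 10 gave 5 lower calls and 0 higher, with a median of -0.005. There were 3 lower and 0 higher calls without saline 1, saline 2, 2MT 2 or 2MT 3. Without saline 3 there were 6 lower and 2 higher calls, and the higher ones were Slc31a2, a copper transporter, and Steap3, a metalloreductase, at 0.29 and 0.28 over all 6 arrays.

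Genes that respond to the other known inducers of Mt1 and Mt2 were counted in the same fit, from lists assembled with earlier results of these data known. Of 12 tested NRF2-induced genes 10 were called lower and 0 higher, with a median of -1.21, led by Srxn1, Hmox1, Gclm, Ftl1 and Gclc. Of 15 tested glucocorticoid-induced genes 6 were called lower and 0 higher, with a median of -0.19, led by Fkbp5, Pdk4, Zbtb16, Klf15 and Sgk1. The call of Sgk1 was lost without 2MT 2 (adjusted p = 0.0516 in limma), and that of Tsc22d3, the sixth, without saline 1 (0.0508) or 2MT 3 (0.0549), so the count was 5 in each of these. Of 10 tested genes of the interleukin 6 and STAT3 response, Stat3 was called lower and 0 higher, with a median of -0.18. Stat3 fell by 0.25 ± 0.06 (SE, adjusted p = 0.019 in limma), and its call was lost without saline 1 (0.0619), saline 2 (0.0582), 2MT 1 (0.0581) or 2MT 3 (0.111), and without the variance trend (0.0762). Without 2MT 2 and with the replicate block 2 genes of this list were called lower, Stat3 and Osmr, the oncostatin M receptor. Which of these inputs, if any, bears on Mt1 and Mt2 was not tested.

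**Figure D5:**
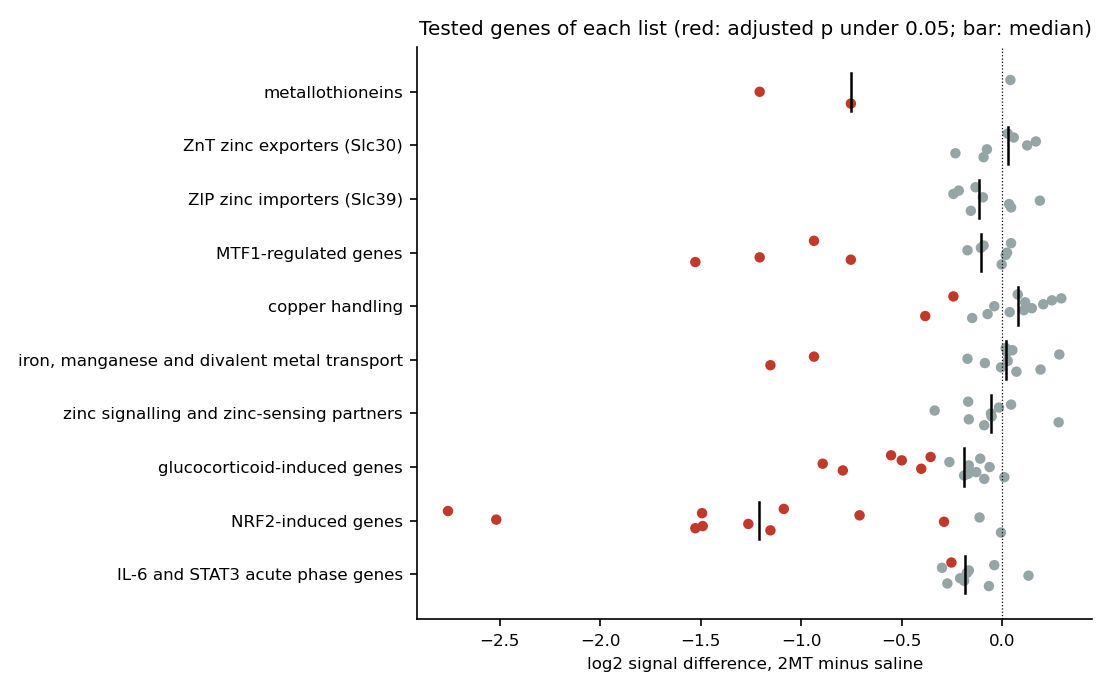
Log2 difference (2MT minus saline) of every tested gene in the metal lists and in the lists of genes that share an inducer with Mt1 and Mt2; red points were called at an adjusted p under 0.05 and the bar is the median. The ZnT and ZIP lists have no red point and medians of 0.03 and -0.12, and the NRF2 list has its median at -1.21.

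The genes whose profiles over the 6 arrays were most like those of Mt1 and Mt2 were found by the Euclidean distance between log2 profiles, each centred on its own mean. For Mt1 they were Gsr, glutathione reductase, at a distance of 0.17, then Abcg2, an efflux transporter (0.20), Wee1, a cell-cycle kinase (0.20), Bach1, a haem-sensing repressor (0.20), and Il4ra, an interleukin 4 receptor subunit (0.21). Their differences lay between -0.73 and -0.63, and Gsr was at 6.47 in 2MT hearts and 7.12 in saline hearts. For Mt2 they were Osgin1 (0.52), Ms4a4a (0.55), Slc40a1 (0.57), Aldh1a1, a retinaldehyde dehydrogenase (0.58), and Rfx2, a transcription factor (0.58). Their differences lay between -1.49 and -0.91. The 5 nearest genes of Mt1 and of Mt2 had none in common. Profiles were not scaled, so genes with a fall of like size lie nearest, and the unequal falls of Mt1 and Mt2 alone can separate the 2 sets. These distances describe the 6 arrays and carry no test.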

How the data were processed

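Per the labels' protocols, Trizol was used to extract total RNA from left ventricle, and 100 ng of it went into the labelled cDNA of each array. The authors deposited 1 log2 signal per probe set and array; the log2 scale was read from the values (0.51 to 13.5, array medians 4.32 to 4.37), as the file's header is silent on scale. MAS5 is the tool named, per the submitters' processing notes, without its version or purpose; normalization between arrays and detection calls are not given in the sources used here, which leaves the signal over background unknown. The values were used without further scaling.

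The platform annotation gave a single symbol to 21789 of the 28944 probe sets, more than 1 to 1621 and no symbol to 5534; 21698 matched the gene table and 0 symbols changed. A gene was its brightest probe set by mean. The dim filter kept the 10547 genes whose mean reached 4.345, the 50th percentile over probe sets. Groups (3 arrays each) were compared over all genes with limma 3.58.1 in R 4.3.3 (lmFit, eBayes with a variance trend, two-sided, group as the only term) and Benjamini-Hochberg adjustment; genes are called at an adjusted p under 0.05. With 3 arrays on each side, the smallest p of an exact permutation test is 0.1. The procedure was tested on simulated data.

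The members and gene lists were chosen with earlier results of these data known. The named genes are all members, the called genes of each metal or inducer list (the 5 smallest p where more were called) and the 5 nearest profiles to Mt1 and to Mt2; Slc39a6, Slc39a7, Mt4, the uncalled MTF1 targets, Slc31a2, Steap3, Mtf2, Tsc22d3, Osmr and the markers were named after their values were seen. Promoter windows (250 bases before to 50 after the start, GRCm38.p6) and gene order are from RefSeq, with 9 of 10 genes matched; the build behind the probe sets is not given, so no probe set coordinates are printed. Python 3.11.15 and matplotlib 3.10.9 drew the figures.

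Arrays with the same number did not deviate together (correlations of deviations from the group means of 0.07, 0.04 and 0.02), so the numbers were not taken as pairs. Alternatives changed 1 choice at a time: normalization, dim filter, offset before log2, handling of several probe sets, variance trend, array weights, replicate block, each array left out, and threshold.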

Additional observations from a re-analysis of the deposited data

How the results depend on the processing

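Mt1 and Mt2 were the 2 called genes of the 10 under every alternative run. Over 17 alternatives the log2 difference of Mt1 ran from -0.79 to -0.73 (limma adjusted p up to 0.00042) and that of Mt2 from -1.42 to -1.04 (up to 0.0076). None of the other 8 genes was called under any of these alternatives; the uncalled differences of Mt3, Mtf1 and Slc39a10 changed sign in 2, 1 and 1 of the 17. The number of other metal handling genes called, 5 (all lower), was 3 (all lower) with no dim filter, without the variance trend or at an adjusted p under 0.01, 8 with array weights or at an adjusted p under 0.1, and 3 to 8 with 1 array left out; the cause was not tested. Each count of 8 was 6 lower, with Mtf2 added, and 2 higher, Slc31a2 and Steap3. The 3 genes called in each of these were Gclc, Slc40a1 and Ftl1. With the replicate block the counts were 2 of the 10 genes and 7 of the others, 5 lower and the same 2 higher. With 3 arrays a group and no detection calls, differences as small as those of Mt3 and Slc39a10 cannot be resolved.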

Other observations

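Of the 19 further metallothionein, ZnT and ZIP genes, 10 were under the dim filter: Mt4, Slc30a2, Slc30a8, Slc30a10, Slc39a2, Slc39a4, Slc39a5, Slc39a8, Slc39a11 and Slc39a12. Their log2 signals ran from 2.39 to 4.37 over the 6 arrays and their differences between the groups from -0.30 to 0.15. Slc39a8 (ZIP8), an importer of zinc, manganese and cadmium and the closest relative of Slc39a14, was at 3.64, 3.64 and 4.15 on the 2MT arrays, against 3.61, 3.56 and 3.82 on the saline arrays, and the groups overlapped. Slc30a8 (ZnT8), the zinc transporter of insulin granules, was at 2.68 ± 0.25 in 2MT hearts and 2.75 ± 0.24 in saline hearts (SD, n = 3 each). With no dim filter, 0 of the 18 dim genes of all metal lists were called in limma (0 at an unadjusted p under 0.05).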
